A study of Mus musculus with 4 samples.

Results

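The genes that write, maintain and erase DNA methylation were examined in the chromatin of osteoblasts with and without TET enzymes. They were *Tet1*, *Tet2*, *Tet3*, *Tdg*, *Dnmt1*, *Uhrf1*, *Dnmt3a* and *Dnmt3b*, 8 genes in all. Their members in the data were the regions of a deposited read count table that overlapped one of these genes or the 2 kb before its start (GENCODE M21, GRCm38). This gave 93 of 255864 regions, with 50 in the *Tet* genes, 3 in *Tdg* and 40 in the genes of the writers, and no region was shared between genes. The regions of a gene are numbered here from the lowest coordinate, so in *Tet1*, *Tet2*, *Tet3* and *Dnmt1*, which lie on the minus strand, region 1 is nearest the 3′ end.

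ATAC-seq, in which a transposase cuts open DNA so that read density reports accessibility, was carried out on primary osteoblasts from the calvaria of 3-day-old C57BL/6 mice. Wild type mice (WT) were compared with mice homozygous for floxed alleles (fl/fl) of *Tet1*, of *Tet2* and of *Tet3* that carried Prx1-Cre (TCKO), a recombinase driven by a promoter active in the mesenchyme of the limbs and of part of the skull. Cells of a preparation that never had Cre keep their alleles. Which exons the floxed alleles remove, and whether WT mice carried them, is not given in the sources used here. The series gave 2 samples for each genotype (a protocol text spoke of 3 repeats), which the table held only as 1 merged column of WT and 1 of TCKO. Replicate error is therefore unknown, no test was made, and each difference compares 2 merged libraries.

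Methyl groups on cytosine are placed mostly at CpG dinucleotides. DNMT3A and DNMT3B place them on unmethylated DNA, and DNMT1, brought to newly copied DNA by UHRF1, restores them after replication. The TET dioxygenases oxidise the methyl group step by step, and the glycosylase TDG cuts out the more oxidised bases, which base excision repair then replaces with plain cytosine. Enhancers and promoters of a cell lineage commonly lose methylation as the cells differentiate.

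The table summed to 56898657 counts for WT and 34608167 for TCKO, and TCKO counts were multiplied by 1.64 before each log2 ratio of TCKO to WT was taken. The intervals in parentheses are 95% Wilson intervals. They cover counting error alone, and PCR copies that the counts may hold would make them too narrow. Loci of 8 osteoblast markers had 26326 WT and 15308 TCKO counts. Macrophage or osteoclast markers held 5334 and 3176 counts, endothelial markers 6570 and 5132, and skeletal muscle markers 1580 and 1022, with no region at *Acta1*. All 5 endothelial loci (*Cdh5*, *Pecam1*, *Kdr*, *Tie1* and *Tek*) had an interval above 0, with a median log2 ratio of 0.47. The osteoblast loci went both ways, 3 with an interval below 0 and 1 above. Their ratios ran from -0.38 (*Alpl*) to 0.47 (*Spp1*), with a median of -0.15. The medians were -0.06 for macrophage or osteoclast markers and 0.09 for skeletal muscle markers. The part of these cell types in the results below was not tested.

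The promoters are shown first, because they held the most counts in 6 of the 8 genes and because their CpG content is what the encoded enzymes act on. Each sequence is a stretch of a promoter region outside annotated exons, from the plus strand of GRCm38, with CpG dinucleotides in capitals. They lie at chr3:133544700-133544899 for *Tet2*, chr6:83441679-83441754 for *Tet3*, chr10:82629614-82629813 for *Tdg*, chr9:20952624-20952707 for *Dnmt1* and chr17:56303121-56303320 for *Uhrf1*.
Tet2 region 15: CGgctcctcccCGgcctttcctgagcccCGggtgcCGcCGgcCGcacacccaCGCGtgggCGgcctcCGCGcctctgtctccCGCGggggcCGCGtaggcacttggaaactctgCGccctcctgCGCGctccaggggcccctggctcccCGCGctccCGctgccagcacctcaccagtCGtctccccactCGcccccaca
Tet3 region 15: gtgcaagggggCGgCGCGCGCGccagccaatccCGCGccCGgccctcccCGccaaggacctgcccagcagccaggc
Tdg region 1: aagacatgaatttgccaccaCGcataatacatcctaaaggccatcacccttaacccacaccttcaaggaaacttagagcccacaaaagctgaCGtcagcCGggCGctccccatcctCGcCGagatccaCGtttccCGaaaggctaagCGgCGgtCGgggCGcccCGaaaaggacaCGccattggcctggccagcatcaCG
Dnmt1 region 8: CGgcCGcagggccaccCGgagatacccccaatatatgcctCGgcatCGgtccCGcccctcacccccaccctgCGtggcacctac
Uhrf1 region 1: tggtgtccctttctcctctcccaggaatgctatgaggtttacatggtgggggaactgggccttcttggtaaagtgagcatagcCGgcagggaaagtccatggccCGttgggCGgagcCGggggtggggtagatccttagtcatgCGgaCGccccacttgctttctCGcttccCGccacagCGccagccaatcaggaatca
The *Tet2* stretch held 23 CpG dinucleotides in 200 bases, the *Tdg* stretch 15 in 200 and the *Uhrf1* stretch 9 in 200. Over whole regions, the 15 promoter regions of the 8 genes (midpoint within 1 kb of a protein-coding transcript start) held a median of 5.75 CpG per 100 bp, and the 78 regions away from promoters held 1.18.

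The promoters of all 8 genes remained accessible in TCKO. None of the 15 promoter regions was 2-fold lower or higher, against 3.98% of the 22831 promoter regions in the table, and their log2 ratios ran from -0.31 to 0.51. With so small a share, none of 15 is no departure from the table. It also rested on the scaling, since with no scaling *Tdg* region 1 was at -1.03, past 2-fold, and *Tet3* region 15 at -0.96. In counts per kb of region and per 1000000 counts of the genotype, the promoter region at the Tet3-202 start was the highest, with 32.6 in WT and 27.6 in TCKO. *Tdg* region 1 followed with 30.3 and 24.4. *Tet2* region 15 had 22.7 and 20.9, *Uhrf1* region 1 had 21.9 and 22.2, and *Dnmt1* region 8 had 19.6 and 18.0. Lower levels were found at *Dnmt3a* region 1, with 15.9 and 13.5, at *Tet1* region 12, with 14.2 and 13.6, and at *Dnmt3b* region 1, with 8.83 and 9.43. The levels thus differed more between genes, from *Tet3* down to *Dnmt3b*, than between the genotypes at any of these promoters.

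Away from promoters the regions moved more, and in both directions. Of the 93 regions, 9 were lower in TCKO by 2-fold or more, against 4.51% of all regions, and 7 were higher by 2-fold or more, against 12.3%. This balance rested on the scaling. With no scaling 28 were lower and 2 higher, against 25.6% and 3.17% of all regions. All 16 lay among the 78 regions away from promoters, where 18.1% of the 233033 such regions of the table passed 2-fold in either direction. Intervals lay wholly below 0 in 24 of the 93 regions (18.9% of all regions) and wholly above 0 in 24 (29.5%). Of the 9 lower regions, 8 lay in *Tet* genes and 1 in *Dnmt3b*. Of the 7 higher regions, 3 lay in *Dnmt1*, 2 in *Tet2*, 1 in *Dnmt3a* and 1 in *Dnmt3b*. Both kinds were thinly covered. The median count, WT and TCKO added, was 84 for the lower and 109 for the higher regions, against 321 for the other 77.

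**Figure D1:**
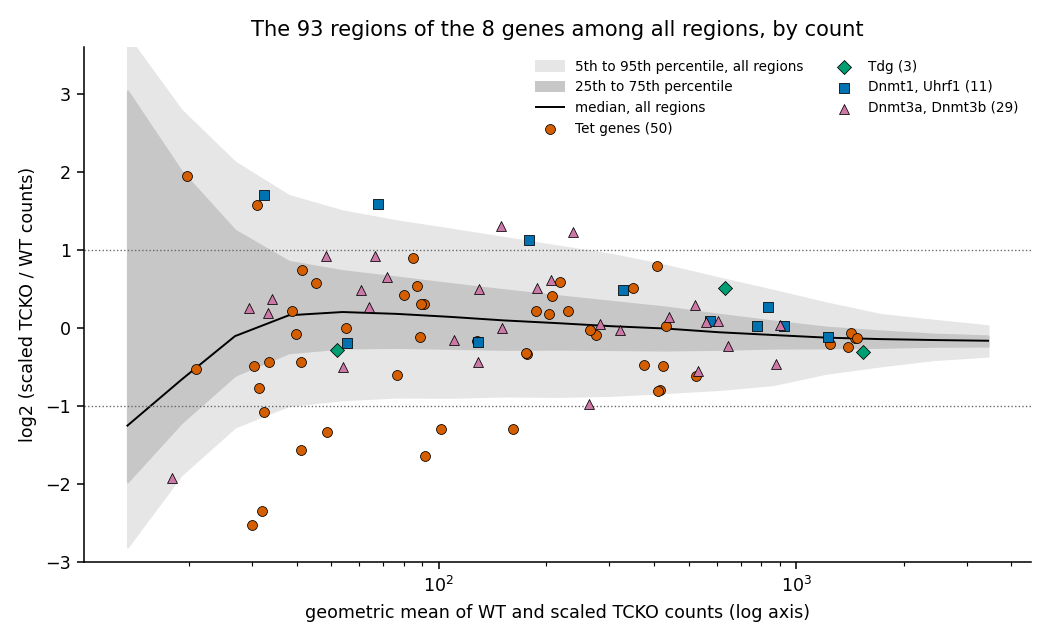
Log2 ratio of TCKO to WT (y axis) against the geometric mean of the WT and scaled TCKO counts (x axis, log scale) for the 93 regions of the 8 genes, over the 5th to 95th and 25th to 75th percentiles and the median of all regions at that count. The dotted lines mark a 2-fold difference, and the points with the lowest ratios are regions of *Tet2* and *Tet3* with few counts.

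The 3 *Tet* loci, which Cre targets in these mice, were all slightly less accessible in TCKO when their regions were summed. *Tet2* summed to 2842 WT and 1486 TCKO counts over 15 regions, the lowest ratio of the 8 genes at -0.22 (-0.31 to -0.13). This was at percentile 15.4 of the 17970 protein-coding loci with regions, whose 5th and 95th percentiles were -0.36 and 0.58. *Tet1* had a ratio of -0.16 over 16 regions and *Tet3* of -0.14 over 19. Intervals below 0 were common, at 32.7% of all loci, and intervals above 0 were found at 23.6%. In merged bulk libraries, fewer cells with an open site and less opening per cell cannot be told apart.

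In *Tet1* and *Tet2* the fall lay away from the promoters. In *Tet2*, the promoter region had 1541 WT and 863 TCKO counts, a ratio of -0.12, and the 14 intronic regions together held 1301 and 623, a ratio of -0.35 (-0.48 to -0.21). In *Tet1*, the 3 promoter regions gave -0.03 (-0.15 to 0.09) and the 13 others -0.21 (-0.28 to -0.14). In *Tet3* no such split was detectable, with -0.16 in the 3 promoter regions and -0.12 in the other 16. The surroundings of *Tet1* and *Tet2* were nearer to 0 or above it. Regions within 250 kb outside the gene had ratios of -0.03 around *Tet1*, 0.09 around *Tet2* and -0.02 around *Tet3*. The nearest neighbours with regions were *Ccar1* (-0.07) and *Slc25a16* (-0.16) for *Tet1*, *Ppa2* (0.02) and *Cxxc4* (-0.06) for *Tet2*, and *Bola3* (0.15) and *Dguok* (-0.29) for *Tet3*. The neighbours of *Tet3* thus bracketed its own value of -0.14.

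**Figure D2:**
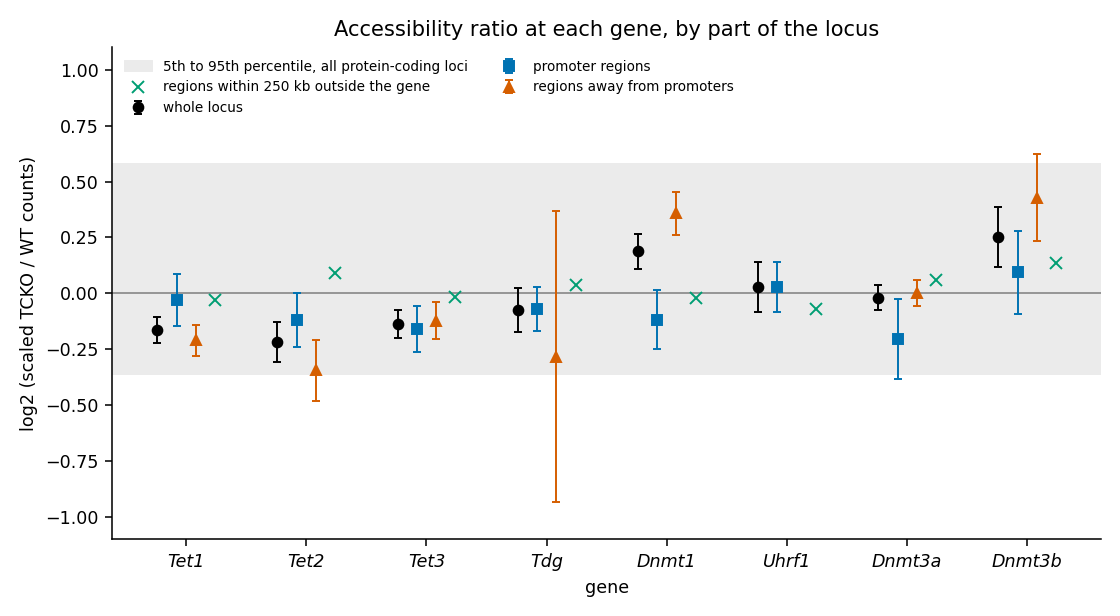
Log2 ratio of TCKO to WT (y axis) for each gene (x axis), summed over the whole locus, over its promoter regions and over the other regions, with 95% intervals from counting error, and over all regions within 250 kb outside the gene. In *Tet2* the regions away from promoters sit at -0.35 and in *Dnmt1* at 0.36, while the promoter regions of both sit at -0.12, and the grey band is the 5th to 95th percentile of all protein-coding loci.

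*Tet2* (ENSMUSG00000040943, chromosome 3, 133463679 to 133545139), whose product is a TET enzyme without a DNA-binding CXXC domain of its own, had the most lower regions, 5 of 15. They lay in 2 parts of the gene. Near the 3′ end, region 1 (chromosome 3, 133468865 to 133469160, intron 11 of the 12-exon transcript Tet2-204) fell from 71 counts in WT to 7 in TCKO, a log2 ratio of -2.53 (-3.72 to -1.53). It lay 0.116 kb from the nearest exon of that transcript, and the next region was 21.8 kb away. Among the 34372 regions of the table with a WT count within 1.2-fold of 71, 22 (0.064%) fell as far.

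The other 4 lower regions of *Tet2* lay in intron 1, between 4.94 and 28.8 kb from the gene's start. Region 12 held 252 and 62 counts (-1.30), region 10 held 161 and 31 (-1.64), region 8 held 76 and 18 (-1.33) and region 7 held 70 and 14 (-1.56). All 4 had a peak summit in WT and none in TCKO, as did 33.0% of all regions, and these calls come from the same reads as the counts. Among regions of like WT count, 0.497% fell as far as region 10 and 1.65% as far as region 12. They stood next to regions that did not fall. Region 9, between regions 8 and 10, held 31 and 32 counts, and regions 13 and 14, nearer the promoter, held 212 and 151 and 172 and 122 counts, ratios of 0.23 and 0.22. Regions 3 and 6, with 17 and 32 and with 9 and 23 counts, were past 2-fold in the other direction but were among the most weakly covered of the gene.

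*Tet3* (ENSMUSG00000034832, chromosome 6, 83362373 to 83459084), whose product has a CXXC domain in its long form, had 2 lower regions of 19. Region 2 (chromosome 6, 83372778 to 83373040, intron 10 of the 12-exon transcript Tet3-203) fell from 71 counts in WT to 8 in TCKO, a log2 ratio of -2.35 (-3.46 to -1.40), and lay 0.154 kb from an exon. Of the same 34372 regions, 34 (0.0989%) fell as far. Region 1 in the same intron, 1.07 kb nearer the 3′ end, was higher in TCKO after scaling, with 177 and 162 counts and a ratio of 0.59 (0.28 to 0.90). The lowest ratios of *Tet2* and *Tet3* were thus both in an intron among the last exons of the gene, which encode the C-terminal part of the catalytic domain. Whether the DNA under these regions was itself removed in TCKO was not tested, because the floxed exons were not given. No *Tet* region went from at least 50 WT counts to at most 3 TCKO counts, as 13 regions of the table did. This count does not answer that question, because cells that never had Cre keep their alleles.

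The central 200 bp of the lower regions *Tet2* region 1 (chr3:133468912-133469111), *Tet3* region 2 (chr6:83372809-83373008) and *Tet2* region 10 (chr3:133521041-133521240) are given here beside *Tet3* region 1 (chr6:83371476-83371675), which was higher in TCKO after scaling, on the plus strand of GRCm38 with CpG dinucleotides in capitals.
Tet2 region 1: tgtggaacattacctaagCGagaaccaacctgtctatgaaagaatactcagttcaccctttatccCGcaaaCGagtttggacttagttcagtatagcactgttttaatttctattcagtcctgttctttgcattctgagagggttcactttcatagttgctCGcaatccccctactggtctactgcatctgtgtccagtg
Tet3 region 2: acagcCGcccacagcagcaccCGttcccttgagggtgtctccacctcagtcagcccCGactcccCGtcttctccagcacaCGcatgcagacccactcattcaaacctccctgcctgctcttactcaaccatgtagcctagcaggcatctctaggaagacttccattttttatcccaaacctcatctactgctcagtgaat
Tet2 region 10: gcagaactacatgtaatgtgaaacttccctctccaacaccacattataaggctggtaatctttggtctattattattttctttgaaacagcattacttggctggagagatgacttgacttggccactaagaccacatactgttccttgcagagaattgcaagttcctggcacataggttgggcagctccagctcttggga
Tet3 region 1: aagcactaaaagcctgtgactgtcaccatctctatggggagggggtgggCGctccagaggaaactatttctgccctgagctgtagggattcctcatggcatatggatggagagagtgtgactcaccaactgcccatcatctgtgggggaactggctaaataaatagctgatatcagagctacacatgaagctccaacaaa
These stretches held 4, 5, 0 and 1 CpG dinucleotides. Over their full length, *Tet2* region 10 held 1, and the other lower regions in intron 1 of *Tet2*, regions 7, 8 and 12, held 3, 1 and 4.

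The second lower region of *Tet3*, region 6 (83402219 to 83402590), lay in intron 4, 0.077 kb from an exon, and held 158 and 39 counts (-1.29). Region 7, 10.1 kb from it in intron 3, was better covered and fell from 543 to 188 counts, a ratio of -0.81 (-1.05 to -0.57). In the other direction, region 16 in intron 2 held 309 and 328 counts, a ratio of 0.80 (0.58 to 1.03) at 1082 bp upstream of the Tet3-202 start. The promoter region at that start (region 15), which holds most counts of the gene, lay beside it with 1518 and 781 counts, a ratio of -0.24 (-0.37 to -0.12). The promoter region at the start of Tet3-203 (region 19) held 427 and 264 counts, a ratio of 0.02.

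*Tet1* (ENSMUSG00000047146, chromosome 10, 62804570 to 62908996), the TET enzyme best known from embryonic stem cells and also a CXXC protein, had 1 lower region of 16. Intron 3 held 6 regions, and the ratios differed along it. The regions nearest exon 3 had more TCKO than WT after scaling, with 79 and 60 counts in region 9, a ratio of 0.32 (-0.16 to 0.80), and 178 and 145 in region 8, a ratio of 0.42 (0.11 to 0.74). From region 7 to region 4, towards exon 4, the ratios were below 0. Region 7 held 1331 and 704 counts, a ratio of -0.20 (-0.33 to -0.07), and region 6 held 645 and 257, -0.61 (-0.82 to -0.40). Region 5 held 545 and 192, -0.79 (-1.02 to -0.55), and region 4 only 46 and 13, -1.07 (-1.98 to -0.23). The intervals of regions 4, 5 and 6 overlapped, so their order is not settled by these counts. Region 3, on exon 4 itself, ended this run with 81 and 61 counts, a ratio of 0.30 (-0.17 to 0.79). Region 10 in intron 2, which has the most counts of the gene, held 1523 and 848 (-0.13). The promoter region with most counts (region 12), 689 bp from the Tet1-207 start, held 1450 and 848 (-0.06). The 1 region of *Tet1* past 2-fold thus lay in intron 3, 0.427 kb from exon 4, and regions 5 and 6 of that intron had the next lowest ratios. Ratios below 0 were not confined to it. Besides region 10, region 2 on exon 13 was at -0.33 and region 16 near the gene's start at -0.43, both with intervals that included 0. No difference was detectable at region 12. The start of the reference transcript Tet1-206 had no promoter region, and region 15, nearest to it, lay 2247 bp away.

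**Figure D3:**
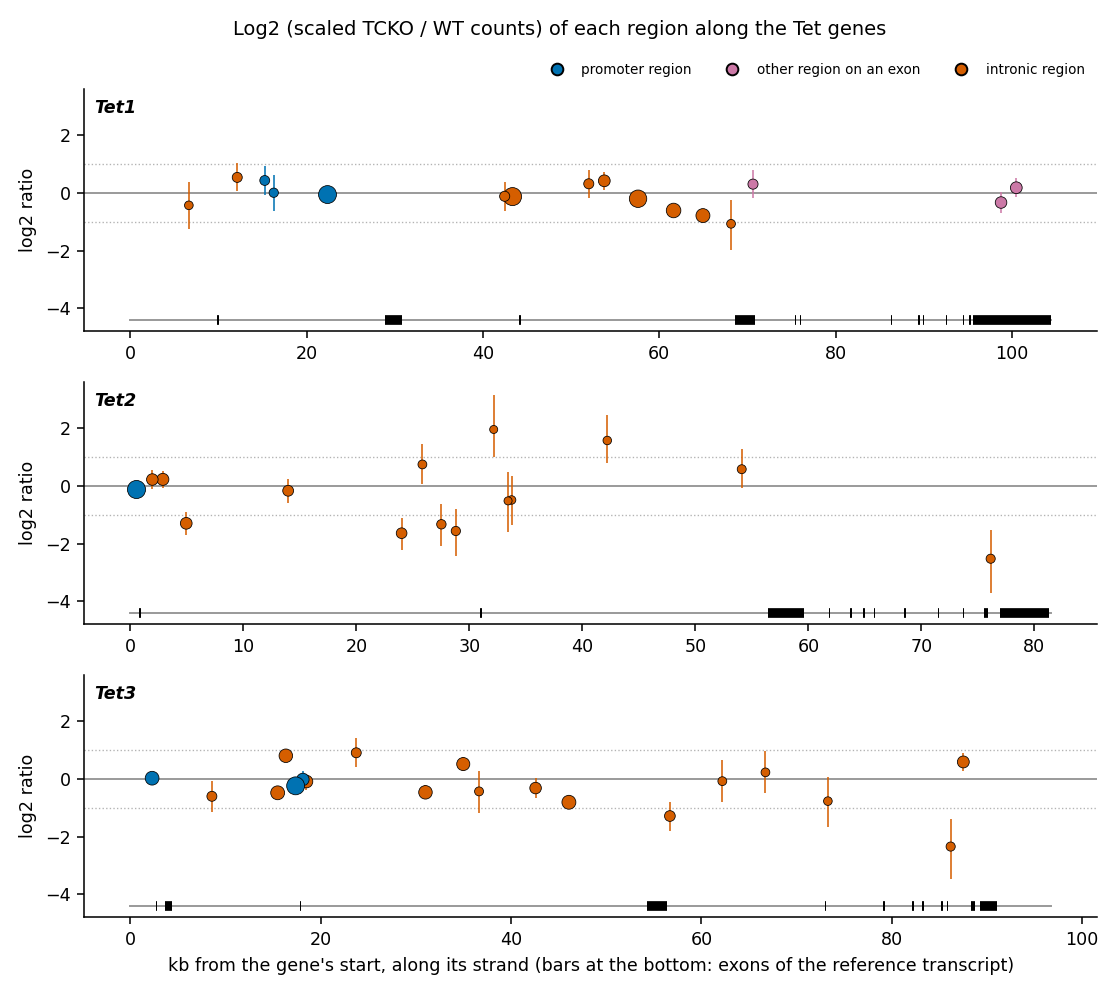
Log2 ratio of TCKO to WT (y axis) of each region of *Tet1*, *Tet2* and *Tet3* against its distance in kb from the gene's start (x axis), with 95% intervals from counting error, point area growing with the count and dotted lines at a 2-fold difference. Region 1 of *Tet2*, in intron 11, sits at -2.53, and in intron 10 of *Tet3* region 2 sits at -2.35 and region 1, nearer the last exons, at 0.59. In *Tet1* the lowest ratio, -1.07 (-1.98 to -0.23) from few counts, lies before exon 4.

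Since Cre deletes exons from floxed alleles, exons were compared with the rest of each *Tet* gene. The comparison had little to rest on. Regions overlapped 2 of the 13 exons of Tet1-206, 1 of the 12 exons of Tet2-204 and 0 of the 12 exons of Tet3-203. The *Tet2* exonic region was the promoter region (region 15), and the *Tet3* one was region 15, on the first exon of Tet3-202. In *Tet1*, the 5 exonic regions were regions 1 and 2 on exon 13, with 190 and 131 and with 197 and 95 counts, region 3 on exon 4, and regions 12 and 13 at promoters, the latter with 54 and 33 counts.

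Exonic regions were not lower than the rest of the gene in *Tet1* or *Tet2*. In *Tet2* this set the promoter region against the intronic regions, and in *Tet1* most exonic counts came from promoter region 12. No region overlapped coding sequence of *Tet2* or *Tet3*, so a loss over their coding exons could not be seen. The ratio of exonic regions minus that of the rest was 0.18 (0.06 to 0.31) in *Tet1* and 0.23 (0.04 to 0.41) in *Tet2*, and -0.14 (-0.29 to 0.00) in *Tet3*. Over the 11502 loci with both parts the median was -0.13, with 5th and 95th percentiles of -0.90 and 0.54. The interval of this difference lay below 0 at 37.1% of these loci and above 0 at 14.0%. The *Tet3* value became 0.013 once the trend of the ratio with count was removed. The 3 *Tet1* exonic regions away from promoters summed to 468 and 287 counts, a ratio of 0.01 (-0.20 to 0.22), so no difference was detectable there at this depth. Of these, only region 3, with 81 and 61 counts, overlapped coding sequence. A scaling factor shifts both parts of a gene alike, so these differences do not depend on it.

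*Tdg* (ENSMUSG00000034674, chromosome 10, 82629828 to 82650799), the glycosylase that removes the oxidised bases, had an interval including 0 as a whole, with 2298 and 1328 counts and a ratio of -0.07 (-0.17 to 0.02). The interval lay below 0 with TMM scaling (-0.25 to -0.05), with DESeq2 size factors (-0.24 to -0.04) and with 25 kb on either side (-0.24 to -0.09). Its 2 main regions went opposite ways. The promoter region at the gene's start (region 1, chromosome 10, 82629291 to 82630285) fell from 1713 to 841 counts, a ratio of -0.31 (-0.43 to -0.19). Region 2, 0.645 kb further along in intron 1, was also a promoter region, 521 bp from the Tdg-206 start. It held 529 and 459 counts, a ratio of 0.51 (0.33 to 0.69). Summed, the 2 promoter regions gave -0.07 (-0.17 to 0.03). Region 3, intronic and away from promoters, held only 56 and 28. The fold of the highest summit over the local background of its own library was 8.81 in WT and 8.85 in TCKO at region 1. The lower count of region 1 was thus not accompanied by a lower fold at its summit.

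*Dnmt1* (ENSMUSG00000004099, chromosome 9, 20907209 to 20959888), the maintenance methyltransferase, was more accessible in TCKO outside its promoter under the total-count scaling. Its 9 regions summed to 3234 WT and 2241 TCKO counts, a ratio of 0.19 (0.11 to 0.27) at percentile 80.3 of all loci. The promoter region (region 8, chromosome 9, 20952094 to 20953241) held 1277 and 716 counts, a ratio of -0.12 (-0.25 to 0.01), and the other 8 regions gave 0.36 (0.26 to 0.45). The promoter ratio minus the other was -0.47 (-0.64 to -0.31). A split in this direction was common, since the median over the whole table was -0.07 for promoter regions and 0.09 for regions away from promoters. Much of the rise lay in intron 1, where region 4 held 757 and 558 counts (0.28), region 5 held 276 and 236 (0.49) and region 6 held 120 and 161 (1.13). Region 7, closest to the promoter, held 555 and 360 counts, a ratio of 0.09, so the intron was not uniformly higher.

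Further into *Dnmt1*, region 3 (20916229 to 20916430, intron 27) rose from 38 to 71 counts (1.59) and region 1 on exon 37 from 17 to 35 (1.70). Each had a peak summit in TCKO and none in WT, as did 10.2% of all regions. Of regions with a like TCKO count, 4.02% rose as far as region 3 and 6.81% as far as region 6. The direction of the whole locus depended on the scaling and on the regions summed. The ratio was -0.53 with no scaling and -0.42 with the background of the peak caller, -0.06 within 2 kb of a transcript start and -0.05 with 25 kb on either side. The neighbourhood, at -0.02, was near 0.

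*Uhrf1* (ENSMUSG00000001228, chromosome 17, 56303321 to 56323486), which reads hemimethylated DNA and recruits DNMT1, had an interval that includes 0. Its only regions lay around the start. They held 914 and 565 counts (0.02) and 768 and 478 counts (0.03), with a locus ratio of 0.03 (-0.08 to 0.14). The sign of the locus ratio depended on the scaling, with -0.05 under TMM, -0.04 under DESeq2 size factors and -0.69 with no scaling. Folds at the summits were 8.17 in both genotypes at region 1 and 8.11 and 7.98 at region 2. Both genes of the maintenance pair are used mostly in dividing cells, so 14 genes of S phase and division were read beside them. Of these loci, 8 had an interval below 0 and 0 above, against 32.7% and 23.6% of all loci, with a median of -0.13. Neither maintenance gene had an interval below 0 under the same scaling, but the regions summed were not matched. The *Dnmt1* promoter region alone was at -0.12 (-0.25 to 0.01), near the median of these loci. Over the whole table, regions at a mean log2 count of 10.25 also had a median of -0.12. No contrast with the genes of division can be drawn from these values.

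The de novo enzymes differed from each other. *Dnmt3a* (ENSMUSG00000020661, chromosome 12, 3806007 to 3914443), the gene with most regions, had a ratio of -0.02 (-0.08 to 0.04) over 23 regions with 6709 and 4024 counts, and its regions lay on both sides of 0, 5 with an interval below 0 (18.9% of all regions) and 7 above (29.5%). Its region with most counts, region 15 (3855704 to 3856533, intron 3), fell from 1033 to 456 counts, a ratio of -0.46 (-0.62 to -0.30). Region 19 in intron 4 fell from 368 to 114 (-0.97). Region 17 in intron 3, the intron of region 15, rose from 154 to 221 counts, a ratio of 1.23 (0.94 to 1.53). A lower and a higher region thus lay within intron 3, and the 23 ratios ran from -0.97 to 1.23. The promoter region (region 1) held 698 and 361 counts, a ratio of -0.23 (-0.42 to -0.05).

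*Dnmt3b* (ENSMUSG00000027478, chromosome 2, 153649450 to 153687730), which is best known from embryonic cells, was the least covered of the 8 loci and had the highest ratio, 0.25 (0.12 to 0.39), from 1053 WT and 763 TCKO counts. This was at percentile 84.5 of all loci. The promoter region held 585 and 380 counts, a ratio of 0.09 (-0.09 to 0.28), and the other 5 regions gave 0.43 (0.23 to 0.62). The whole table was split in the same direction, with medians of -0.07 for promoter regions and 0.09 for the others. The largest rise was at region 5 in intron 21, which went from 94 to 143 counts, a ratio of 1.31 (0.95 to 1.70). Region 2 in intron 2 went from 34 to 5 counts (-1.92), the only lower region of a writer gene. The locus turned to -0.46 with no scaling and -0.36 with the background of the peak caller, and its surroundings within 250 kb were also above 0, at 0.14, with *Commd7* at 0.33. The endothelial marker loci rose under the same scaling by a median of 0.47 on the log2 scale, and their part in the *Dnmt1* and *Dnmt3b* ratios was not tested.

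**Figure D4:**
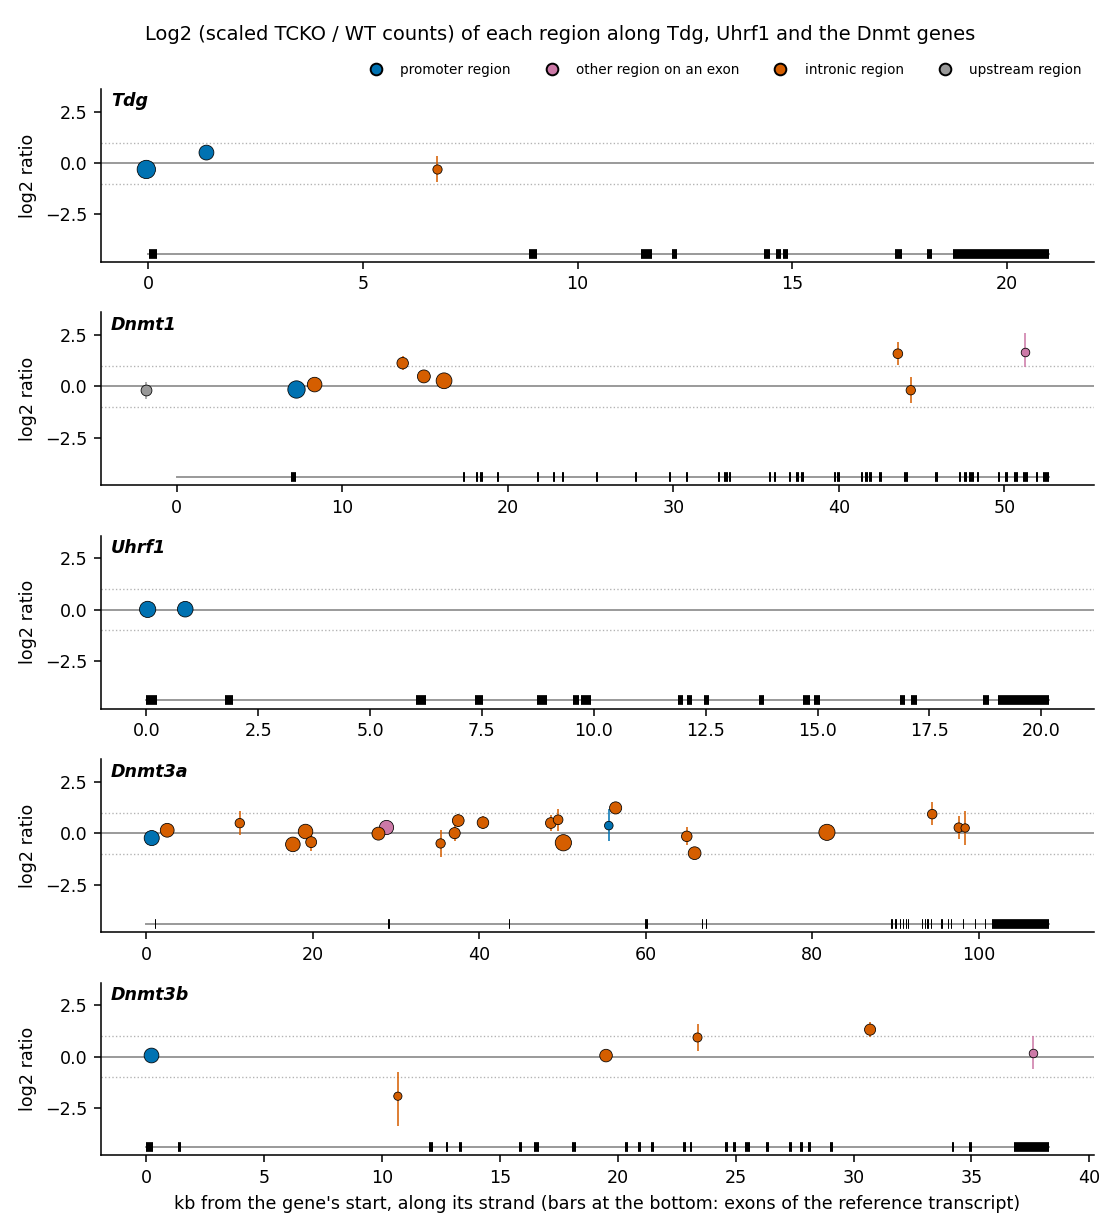
Log2 ratio of TCKO to WT (y axis) of each region of *Tdg*, *Dnmt1*, *Uhrf1*, *Dnmt3a* and *Dnmt3b* against its distance in kb from the gene's start (x axis), drawn as for the *Tet* genes. Promoter regions lie between -0.31 and 0.51, and the regions past 2-fold lie inside *Dnmt1*, *Dnmt3a* and *Dnmt3b*.

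Of the 5 higher regions of writer genes, 3 held an AP-1 consensus, TGANTCA, in their central 200 bp, and *Dnmt1* regions 1 and 3 did not. Only the 3 with the consensus are printed, so that they share it follows from the choice. They are *Dnmt1* region 6 (chr9:20946150-20946349), *Dnmt3a* region 17 (chr12:3862296-3862495) and *Dnmt3b* region 5 (chr2:153680046-153680245), with the consensus in capitals on the plus strand of GRCm38.
Dnmt1 region 6: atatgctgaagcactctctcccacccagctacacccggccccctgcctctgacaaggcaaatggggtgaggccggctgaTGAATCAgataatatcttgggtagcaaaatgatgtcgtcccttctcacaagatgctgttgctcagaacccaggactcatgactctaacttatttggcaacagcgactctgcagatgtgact
Dnmt3a region 17: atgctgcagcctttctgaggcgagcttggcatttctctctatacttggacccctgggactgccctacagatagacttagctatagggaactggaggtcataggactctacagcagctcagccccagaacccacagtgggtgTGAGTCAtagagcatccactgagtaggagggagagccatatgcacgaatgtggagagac
Dnmt3b region 5: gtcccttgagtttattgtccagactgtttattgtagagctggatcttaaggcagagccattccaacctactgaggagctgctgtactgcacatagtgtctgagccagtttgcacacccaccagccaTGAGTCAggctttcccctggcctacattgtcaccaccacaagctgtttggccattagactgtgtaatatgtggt
Searched on both strands of the central 200 bp, this consensus was found in 18 of the 93 regions, and in 23.6% of all regions. It lay in 3 of the 7 higher regions and 1 of the 9 lower regions, and in 42.8% of all higher and 7.97% of all lower regions of the table. A match to these letters does not show that a factor was bound.

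Of the other consensus sequences, the GC box GGGCGG lay in 7 of the 15 promoter regions (37.9% of all promoter regions) and in 6 of the other 78 (4.29%). The NFY consensus CCAAT lay in 6 (20.6%) and in 16 (23.5%). An E2F consensus (TTTCCCGC or TTTGGCGC) lay in 2, those of the maintenance genes *Dnmt1* and *Uhrf1*, and in 1.48% of all promoter regions. The NRF1 consensus GCGCATGC was found only in the *Dnmt1* promoter region, and the cyclic AMP response element TGACGTCA only in *Tdg* region 1, among the 93 regions. The ETS consensus CCGGAAG and the CTCF consensus were in none of the 93. Runt (TGTGGTT) was in 6, 2 of them promoter regions, and TEAD (GGAATG) in 11, all away from promoters, against 8.72% and 16.3% of all regions.

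Peak calls were compared last. Of the 93 regions, 58 had a summit in both genotypes, 28 only in WT and 7 only in TCKO, and over all regions these shares were 56.8%, 33.0% and 10.2%. In the *Tet* genes 18 of 50 regions had a summit only in WT and 3 only in TCKO. In the writer genes these were 9 and 4 of 40. WT held more counts in the regions, 56898657 against 34608167, but counts within regions do not give the depth of a library. The part of depth in these calls was not tested.

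The genes around the pathway, 46 loci in 5 groups, were described by the same ratio. Of these, 17 had an interval below 0 and 8 above, beside 32.7% and 23.6% of all loci, and the median was -0.05 against -0.03 over all loci. Among 9 readers of methylated DNA, 4 were below and 1 above, from *Zbtb38* (-0.46), a methyl-CpG binding zinc finger protein, to *Zbtb33* (0.24), which encodes Kaiso. Among 10 genes of base excision repair, which finishes demethylation after TDG, 4 were below and 2 above, with *Xrcc1* at -0.20 and *Polb* at 0.20. Among 10 partners and cofactor suppliers of the TET enzymes 4 were below and 1 above. *Ogt*, the O-GlcNAc transferase that binds TET proteins, was at -0.40, and *Wt1*, which recruits TET2, at 0.25.

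Of 11 genes that target or regulate the methyltransferases, 1 was below and 3 were above. *Dnmt3l*, the catalytically inactive partner of the de novo enzymes, was at -0.24 and *Ehmt1*, a histone H3 lysine methyltransferase, at 0.46 (0.38 to 0.55). Of 6 genes of methyl donor supply, 4 were below and 1 above. *Mat2b*, the regulatory subunit of the enzyme that makes S-adenosylmethionine, was at -0.19 and *Mtr*, methionine synthase, at 0.12. The 8 writers and erasers themselves had 3 below and 2 above and a median of -0.05.

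**Figure D5:**
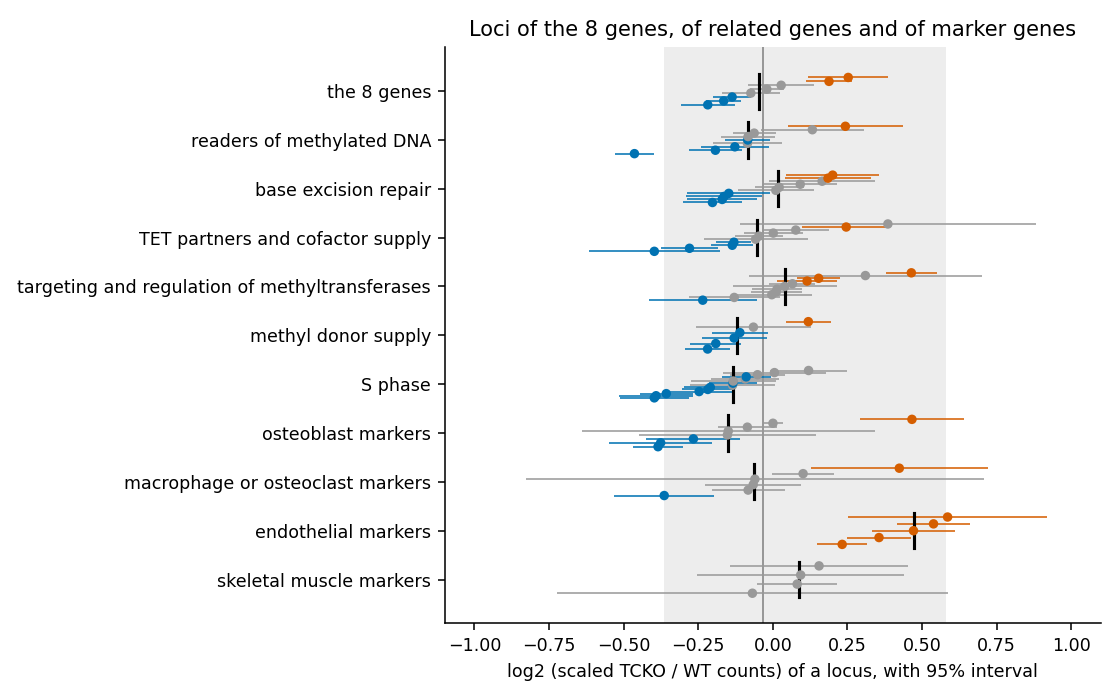
Log2 ratio of TCKO to WT (x axis, with 95% intervals from counting error) of each locus, grouped by list (y axis), with intervals below 0 in blue, above 0 in orange and including 0 in grey. Black bars are list medians and the band is the 5th to 95th percentile of all protein-coding loci; the endothelial median of 0.47 stands highest, and those of the 8 genes and of the pathway groups lie near 0.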

How the data were processed

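ATAC-seq of primary osteoblasts was analysed from 4 samples, 2 per genotype. Per its methods, the study aligned reads to GRCm38 with STAR (2.7.0e), kept uniquely mapping reads, merged replicates and called peaks with MACS2. Removal of duplicate or mitochondrial reads and a shift for the transposase were not given in the sources used here, and the labels name an RNA library kit where the methods name an ATAC kit. The authors deposited raw read counts per region, made with bedtools multicov, 1 merged column per genotype. Their deposited peak lists hold, for each summit, a fold enrichment (a ratio to the local background of that library), with p-value and q-value written as −log10. No column of sample values was left aside (0 columns).

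TCKO counts were scaled to the WT total. A region's ratio was log2 of scaled TCKO counts plus 1 over WT counts plus 1, and a locus or part of one was a ratio of summed counts. The cutoff was 2-fold, the fold the study used for peaks specific to a genotype. The study reported more regions closing than opening in TCKO, whereas total-count scaling put 4.51% of all regions 2-fold lower and 12.3% higher. With no scaling these shares were 25.6% and 3.17%. A region counted as exonic if it overlapped an exon of a protein-coding transcript by at least 1 bp, and the reference transcript, named with each gene, numbered its exons. Parts of a gene were compared over loci with at least 100 counts in each part. Replicates were merged, so the planned tests could not be run, and edgeR (4.0.16) and DESeq2 (1.42.0), in R 4.3.3, gave only alternative scaling factors. A peak caller background was recovered from the folds and p-values. Other alternatives were a loess fit (statsmodels 0.14.6, span 0.3), 20 bins of GC content, other windows, a fold of 1.5, 10 added counts and at least 50 counts. Total counts of 56898657 and 34608167 set the precision. Sequences were read from the RefSeq GRCm38 genome.

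The members, lists and alternatives were chosen with earlier results of these data known. Named by rule were, for each member, the region with most counts and each region past 2-fold that reached 50 counts in one genotype, the *Tet* exonic regions, the nearest neighbours of the *Tet* genes, and in each pathway group the lowest and highest locus with at least 500 counts, except 1 that is not reported here and in whose place *Mat2b* is given. Further regions along the genes, *Commd7* and the printed regions away from promoters were chosen after their values were seen. The steps ran in Python 3.11.15 (scipy 1.17.1, pandas 2.3.3, numpy 2.4.6) and were tested on simulated data.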

Additional observations from a re-analysis of the deposited data

How the results depend on the processing

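No paired analysis was possible because replicates were merged before counting. Leaving out a replicate and the edgeR and DESeq2 tests could not be run for the same reason, and leaving out promoter regions gave no exonic regions in *Tet2* and *Tet3*. TCKO counts were multiplied by 1.64 (total count), 1.56 (TMM), 1.57 (DESeq2 size factors) or 1.08 (peak caller background), which put the median of all regions at 0.06, -0.01, 0.00 and -0.54, and without a factor at -0.64. A factor shifts every region alike by construction.

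With no scaling the locus ratios were -0.88 (*Tet1*), -0.94 (*Tet2*), -0.85 (*Tet3*), -0.79 (*Tdg*) and -0.74 (*Dnmt3a*). *Uhrf1* (-0.69), *Dnmt1* (-0.53) and *Dnmt3b* (-0.46) changed sign, and the median was -0.76. With the peak caller background they were -0.77 (*Tet1*), -0.83 (*Tet2*), -0.75 (*Tet3*), -0.68 (*Tdg*) and -0.63 (*Dnmt3a*). *Uhrf1* (-0.58), *Dnmt1* (-0.42) and *Dnmt3b* (-0.36) changed sign here too, and the median was -0.66. TMM gave -0.24 for *Tet1*, -0.21 for *Tet3* and -0.096 for *Dnmt3a*, and DESeq2 size factors -0.23, -0.20 and -0.085. After loess *Tet1* was at -0.10, and the sign changed for *Tdg* (0.025), *Tet1* region 10 (0.0014) and the exonic difference of *Tet3* (0.013). Within 2 kb of a transcript start the ratios were -0.029 (*Tet1*), -0.081 (*Tet2*), -0.072 (*Tet3*), -0.059 (*Dnmt1*, changed sign), 0.17 (*Dnmt3a*, changed sign) and 0.095 (*Dnmt3b*). With 25 kb on either side *Tet3* was at -0.058, and *Dnmt1* (-0.047) and *Uhrf1* (-0.071) had the other sign. Lower and higher regions numbered 28 and 2 when unscaled (25.6% and 3.17% of all regions), 25 and 2 on the peak caller background (19.9% and 3.91%) and 15 and 15 at a fold of 1.5 (13.2% and 23.3%). Over coding sequence alone the exonic difference of *Tet1* was 0.48 (-0.003 to 0.96), from region 3 alone, and with regions at least 50% exon it was 0.19 (-0.02 to 0.40), so both intervals included 0. The cause of these shifts beyond the factor was not tested. The summed ratios of the *Tet* loci were below 0 in each alternative run, but within 2 kb of a start the intervals of *Tet1* (-0.15 to 0.09), *Tet2* (-0.19 to 0.03) and *Tet3* (-0.15 to 0.01) included 0. After loess *Tet2* region 15 was at 0.011, also with the other sign.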
